A study of Mus musculus with 2 samples.

Results

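The 32 genes described here act in G2 and mitosis, the stretch of the cell cycle in which a cell with copied DNA prepares to divide and divides. They were taken by name, as the rows of the deposited gene tables whose symbol is on a list of 32, out of 32285 genes in all. They were measured by droplet single-cell RNA sequencing of mouse cortex at postnatal day 5, in 1 wild-type library (WT) and 1 library with a mutation of Katnal2 (Mut), a gene of the katanin family of microtubule-severing proteins. No treatment differed between them: the labels name dissection and deep-frozen storage for both, and cells freed with trypsin and type-II collagenase were strained, passed through a fluorescence-activated sorter and encapsulated with the 10x Chromium system. The sources used here do not say which part of Katnal2 is mutated or which gate the sorter used. The submitters write of 3 replicates for each sample, yet each genotype has 1 library, in which some cells carry male and some female transcripts, so animals were pooled and no cell was assigned to an animal. With 1 library per genotype no difference below has a test or a replicate check, and every interval covers counting error only.

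A barcode was taken as a cell when it held 1000 or more unique molecular identifiers (UMIs, counted RNA molecules) from 500 or more genes, with no more than 20% of them mitochondrial. This gave 11024 cells in WT and 10102 in Mut, and 39 of their barcodes occurred in both libraries. After removal of likely doublets 10052 and 9286 cells were kept, with a median of 6210.5 and 7322 UMIs. Levels are given as UMIs of a gene per 1000000 UMIs of the cells in question (CPM). Katnal2 itself was at 4.03 CPM in WT (290 UMIs) and 4.94 CPM in Mut (378 UMIs), and the Mut to WT ratio was 1.22 (1.05 to 1.43). Since the mutated part is not known, this level checks nothing about the mutation. Cell groups were formed by clustering with the 32 genes and other cell cycle genes left out, and were called "-like" after marker genes, or by their 3 leading genes where the markers named none. Cells of the excitatory neuron lineage, which fill the cortex, made up 0.448% of kept cells in WT and 0.517% in Mut, while mixed astroglia-like cells made up 25.8% and 27.4%, oligodendrocyte precursor-like cells 18.4% and 18.4% and inhibitory neuron-like cells 13.7% and 10.4%. The neurons that define the labelled tissue were thus nearly absent.

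As background, entry into mitosis is driven by Cdk1 bound to A- and B-type cyclins, and Plk1 and the Aurora kinases then act on centrosomes, chromosomes and the spindle. Kinetochores, built on centromeres marked by Cenpa, attach chromosomes to spindle microtubules, and the checkpoint proteins Bub1, Bub1b, Bub3 and Ttk hold the cell until all are attached. Cdc20 then switches on the anaphase-promoting complex, a ubiquitin ligase that works with the enzyme Ube2c to have cyclin B destroyed, and the cell divides. Many of these genes are transcribed in G2 by a shared system in which the DREAM and MuvB complexes, B-Myb and FoxM1 act at promoter elements called the cell cycle homology region, and NF-Y binds nearby CCAAT boxes. In the postnatal cortex and the zone next to the ventricle, glial precursors, precursors of olfactory bulb interneurons, vascular cells and microglia still divide, while most neurons have left the cell cycle.

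The promoters of 5 members show how these elements are arranged where they are dense, where 1 kind is present and where both are lacking. Each sequence is the 250 bases before the RefSeq start of the gene in build GRCm38.p6, written 5′ to 3′ on the strand of the gene. Capitals mark CCAAT or its reverse ATTGG, and TTTGAA, its reverse TTCAAA, or TTCGAA, which reads the same on both strands.
Cdc20, chr4:118437344-118437593, minus strand: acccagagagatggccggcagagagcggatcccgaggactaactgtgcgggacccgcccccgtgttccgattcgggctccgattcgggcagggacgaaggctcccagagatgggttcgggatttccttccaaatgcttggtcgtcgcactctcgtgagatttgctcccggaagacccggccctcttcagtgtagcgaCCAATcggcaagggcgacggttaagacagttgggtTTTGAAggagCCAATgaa
Top2a, chr11:99024190-99024439, minus strand: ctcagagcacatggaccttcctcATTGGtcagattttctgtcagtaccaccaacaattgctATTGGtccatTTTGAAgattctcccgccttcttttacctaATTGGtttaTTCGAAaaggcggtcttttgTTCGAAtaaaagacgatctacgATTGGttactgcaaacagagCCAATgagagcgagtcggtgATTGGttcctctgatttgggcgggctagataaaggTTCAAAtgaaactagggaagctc
Cdk1, chr10:69352913-69353162, minus strand: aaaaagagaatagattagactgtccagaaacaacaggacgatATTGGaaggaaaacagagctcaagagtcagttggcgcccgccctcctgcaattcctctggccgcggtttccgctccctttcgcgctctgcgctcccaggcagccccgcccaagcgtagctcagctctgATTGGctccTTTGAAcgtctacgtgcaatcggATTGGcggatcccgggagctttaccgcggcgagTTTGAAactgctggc
Ccnb1, chr13:100786487-100786736, minus strand: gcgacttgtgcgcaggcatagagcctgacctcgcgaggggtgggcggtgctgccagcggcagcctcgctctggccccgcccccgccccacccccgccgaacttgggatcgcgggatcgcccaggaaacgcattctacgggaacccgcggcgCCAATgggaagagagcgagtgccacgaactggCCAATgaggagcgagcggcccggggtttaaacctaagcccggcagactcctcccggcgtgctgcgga
Birc5, chr11:117848987-117849236, plus strand: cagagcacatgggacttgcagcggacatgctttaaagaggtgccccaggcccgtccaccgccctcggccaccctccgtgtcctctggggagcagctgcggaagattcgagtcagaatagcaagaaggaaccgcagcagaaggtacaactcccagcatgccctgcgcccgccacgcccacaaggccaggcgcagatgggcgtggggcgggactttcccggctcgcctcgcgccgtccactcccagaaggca
Top2a, which encodes the topoisomerase that untangles copied chromosomes, held 6 CCAAT boxes and 4 elements of the TTTGAA or TTCGAA kind. Cdc20 had 1 TTTGAA at base -18 from the start, between 2 CCAAT boxes. Cdk1 held 3 CCAAT boxes and 2 TTTGAA elements. In Ccnb1 there were 2 CCAAT boxes and no element of the other kind, and Birc5, which encodes survivin, had none of either.

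RefSeq promoter windows, from 250 bases before to 50 after the start, were found for 27 of the 32 members. Aurkb, Ccna2, Kif20a, Pimreg and Tpx2 had no entry. At least 1 CCAAT on either strand was in 23 of the 27 windows (85.2%), against 37.9% of 27025 windows of all genes in the table. At least 2 were in 16 members (59.3%), against 12.2%. TTTGAA or TTCGAA, on either strand, was in 22 members (81.5%), against 19.4%, and lay within 50 bases of the start in 20 (74.1%), against 5.29%. A CCAAT together with such an element near the start was in 19 members (70.4%), against 2.28% of all windows. Nuf2, Nusap1 and Birc5 held neither element, Ndc80 only the TTTGAA kind, and Ccnb1 and Cenpe only CCAAT. A match of letters is a description of the window and not a bound site.

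To count cells rather than RNA, each cell was thinned at random to 2000 UMIs, and a cell was called dividing when it held UMIs of at least 3 of 31 members. Bub3 was left out of this count because it is known to be used outside mitosis. The word stands for this rule only, and includes cells that also carried S phase genes. Cells under 2000 UMIs, 485 in WT and 400 in Mut, were left out of the shares. By this rule 1969 of 9567 WT cells were dividing (20.6%, 19.8 to 21.4, exact binomial 95% interval) and 1733 of 8886 Mut cells (19.5%, 18.7 to 20.3). The ratio of Mut to WT shares was 0.948 (0.888 to 1.01), so the difference was within counting error. Without thinning the shares were 27.1% and 28.5%, and the order of the libraries turned over.

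Member RNA was unevenly spread over cells. After thinning, 61.8% of WT cells and 61.7% of Mut cells held none of the 31 members, and 17.7% and 18.8% held 1 or 2. A 0 at this depth does not show absence, and these cells still held 2.07% and 2.2% of the thinned UMIs of all 32 members, all from Bub3. A further 4.19% and 4.29% held 3 to 5, 5.92% and 4.82% held 6 to 10, and 10.5% and 10.4% held 11 or more. That last class, about 1 cell in 10, carried 71.1% of all thinned member UMIs in WT and 73.5% in Mut. It was set by these same members, so a high share there is partly built in. Cells with 6 to 10 members carried a further 16.1% and 13.1%. Near the limit, 340 WT and 334 Mut cells held 2 members and 169 in each library held 3. A dividing cell held a median of 11 members in both libraries, with 19.3 ± 13 member UMIs of 2000 in WT and 20 ± 13.7 in Mut (SD over cells). Dividing cells were also the larger libraries before thinning, with a median of 8866 against 5878 UMIs in WT and 9915 against 6956 in Mut.

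**Figure D1:**
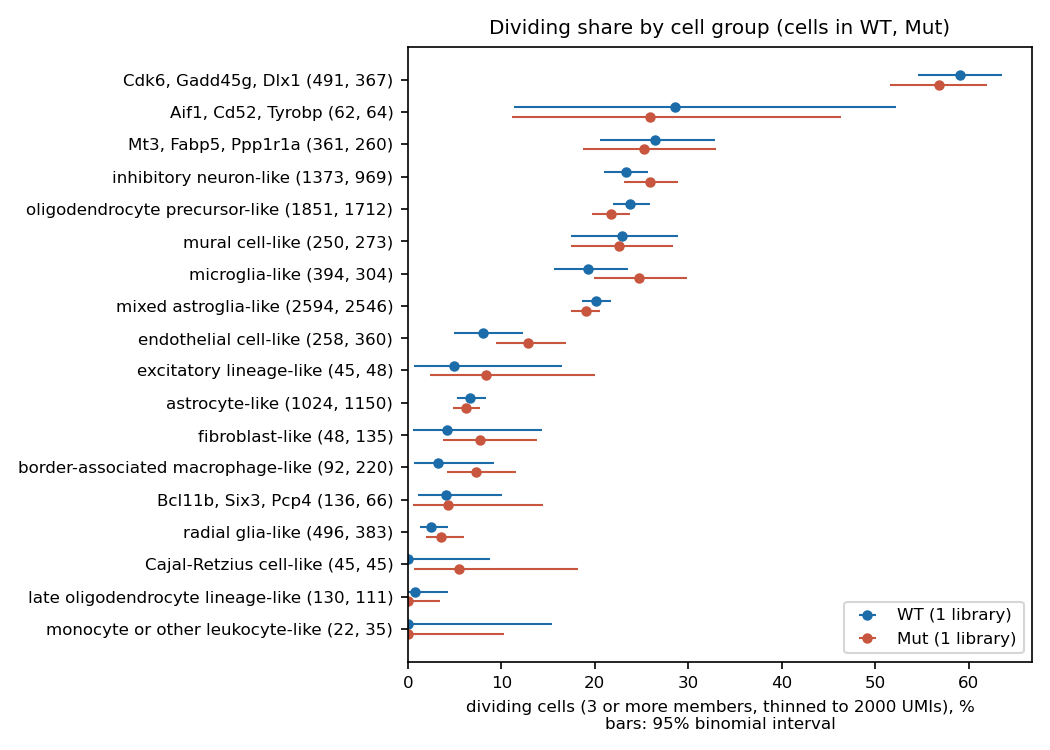
Share of dividing cells (x axis, percent of cells with at least 2000 UMIs) in the cell groups plotted, each with at least 20 kept cells in both libraries, with exact binomial 95% intervals, for WT and Mut. The group led by Cdk6, Gadd45g and Dlx1 stands at 59.1% and 56.8%, and the late oligodendrocyte lineage-like group at 0.775% and 0%.

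Of the groups with at least 100 cells in both libraries, the highest share of dividing cells was in a cluster that the markers left unnamed. In the cluster led by Cdk6, Gadd45g and Dlx1 (491 WT and 367 Mut cells), 59.1% of WT cells (54.6 to 63.6) and 56.8% of Mut cells (51.6 to 62.0) were dividing. Of its dividing cells 97.9% and 99.0% also held at least 3 of the S phase genes, against 74.4% and 74.8% of dividing cells over all groups. Dlx1 is known from precursors of inhibitory neurons in the ventral forebrain.

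Inhibitory neuron-like cells were split. Their share of dividing cells was 23.3% (21.0 to 25.7) in WT and 25.9% (23.1 to 28.9) in Mut, but nearly all of it lay in 1 of 2 sub-clusters. In the sub-cluster led by Sp9, Dlx6os1 and Igfbpl1 40.8% and 43.7% of cells were dividing, and in the one led by Stmn2, Tubb3 and Dlx6os1, where Stmn2 and Tubb3 are microtubule genes of young neurons, 2.04% (1.06 to 3.53) and 2.73% (1.37 to 4.83). Summed over all 32 members, the level was 6604 CPM in WT and 7588 in Mut in the first and 536 and 736 in the second.

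Glia gave the largest numbers of dividing cells. Oligodendrocyte precursor-like cells (1851 and 1712) were 23.8% (21.9 to 25.9) and 21.7% (19.7 to 23.8) dividing, and made up 21.7% of all dividing cells in WT and 20.7% in Mut. Mixed astroglia-like cells (2594 and 2546) were 20.1% (18.6 to 21.7) and 19.0% (17.5 to 20.6) dividing and made up 26.5% and 27.8%. Their clusters scored between 0.465 and 0.544 for astrocyte markers and between 0.369 and 0.442 for radial glia markers. Astrocyte-like cells (1024 and 1150) were 6.67% (5.21 to 8.38) and 6.20% (4.87 to 7.76) dividing, and radial glia-like cells (496 and 383), led by Sfrp1 and holding Hopx among their leading genes, 2.48% (1.29 to 4.30) and 3.57% (1.92 to 6.03). Dividing cells of the mixed astroglia-like group held fewer UMIs of the radial glia markers than the other cells of that group, a median of 67 against 85 of 2000 in WT and 68 against 80 in Mut. The same comparison for the astrocyte markers, for which these clusters scored higher, is not given here. In oligodendrocyte precursor-like cells the own markers were nearly level, 13 against 14 in WT and 13 against 15 in Mut.

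Within the mixed astroglia-like group the 4 sub-clusters differed. The one led by Tnfrsf19, Ccdc80 and Id1 had 25% dividing cells in WT and 23.8% in Mut, and the one led by Slc14a2, Zic1 and Entpd2 had 9.27% and 10.4%. In the sub-cluster led by Crym, Socs3 and Six3 (364 and 182 cells) the share was 17.4% (13.6 to 21.7) in WT and 9.39% (5.57 to 14.6) in Mut, and the ratio of 0.541 (0.297 to 0.936) rests on 63 and 17 dividing cells. Its summed member level was 2331 CPM in WT against 1482 in Mut, at a ratio of 0.636 (0.608 to 0.664).

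Vascular and immune cells also held dividing cells. Mural cell-like cells (250 and 273), which lie around vessels, were 22.9% (17.5 to 28.9) and 22.6% (17.5 to 28.4) dividing. Microglia-like cells (394 and 304) were 19.3% (15.6 to 23.6) and 24.7% (19.9 to 29.9) dividing, and endothelial cell-like cells (258 and 360) 8.05% (4.92 to 12.3) and 12.8% (9.39 to 16.9). Endothelial dividing cells carried 10.1 member UMIs of 2000 in WT and 8.71 in Mut, against 19.3 and 20 over all groups. In these 3 groups the dividing cells held fewer of their own markers than the other cells. The medians were 31 against 44.5 UMIs in WT mural cell-like, 27 against 30 in WT microglia-like and 19 against 31 in WT endothelial cell-like cells. In Mut these medians were 34.5 against 47, 26 against 28 and 20 against 28.

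Among the groups with at least 100 cells in both libraries, the floor was in the oligodendrocyte lineage. In the late oligodendrocyte lineage-like group, which is on the way to making myelin, 1 of 129 WT cells (0.775%) and 0 of 107 Mut cells were dividing, and a count of 0 allows a share of up to 2.8% by a limit of 3 counts, or 3.39% by the exact binomial interval. The summed level there was 184 CPM in WT and 164 in Mut, and Bub3 alone gave 39.9% and 47.5% of those UMIs. In Cajal-Retzius-like cells, early-born neurons of the outer cortex, 0 of 40 WT cells (up to 7.5% and 8.81% by the same limits) and 2 of 37 Mut cells (5.41%) were dividing. RNA free in the suspension, read from barcodes of 10 to 100 UMIs, held the members at 1960 CPM (1920 to 2000) in WT and 1976 (1936 to 2017) in Mut. The late oligodendrocyte lineage-like cells, with a median of 8707.5 UMIs in WT against 6210.5 over all kept cells, thus held far less member RNA than the suspension did.

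The summed level of the 32 members followed the order of the dividing shares only in part. In Mut, microglia-like cells were 24.7% dividing and mural cell-like cells 22.6%, but their levels were 3110 and 4299 CPM. In WT, endothelial cell-like cells were 8.05% dividing and astrocyte-like cells 6.67%, but their levels were 1063 and 1140 CPM. Of the 12 groups with at least 100 cells per library, the level was highest in both libraries in the cluster led by Cdk6, Gadd45g and Dlx1, at 6852 CPM in WT and 7396 in Mut. The inhibitory neuron-like sub-cluster led by Sp9, Dlx6os1 and Igfbpl1, taken alone, stood above it in Mut, at 7588 CPM. Lowest of the 12 was the late oligodendrocyte lineage-like group. Between these ends several neighbours changed places between the libraries. Inhibitory neuron-like cells were at 4432 and 5338 CPM, and the cluster led by Mt3, Fabp5 and Ppp1r1a at 6276 and 4785. Oligodendrocyte precursor-like cells were at 3690 and 3498 and mural cell-like cells at 3448 and 4299. Mixed astroglia-like cells stood at 2720 and 2685 and microglia-like cells at 2393 and 3110. Astrocyte-like, endothelial cell-like and radial glia-like cells, at 1140, 1063 and 833 in WT and 1084, 1445 and 1105 in Mut, did not keep an order. The cluster led by Mt3, Fabp5 and Ppp1r1a was shallow, with a median of 2318 UMIs in WT and 2570.5 in Mut and 149 and 106 cells too shallow for the share. Of its remaining cells 26.4% in WT and 25.3% in Mut were dividing. Before thinning these dividing cells had a median of 7137 UMIs against 3266.5 in the others in WT, and 5823 against 3483 in Mut, so they weigh more in its level.

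Taken gene by gene, 18 of the 32 members had their highest level of the 12 groups in the cluster led by Cdk6, Gadd45g and Dlx1 in WT and 26 in Mut. The other 14 in WT, Ccnb1, Cdc20 and Ube2c among them, were highest in the shallow cluster led by Mt3, Fabp5 and Ppp1r1a. In both libraries 31 members were lowest in the late oligodendrocyte lineage-like group and Ckap2 in endothelial cell-like cells.

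**Figure D2:**
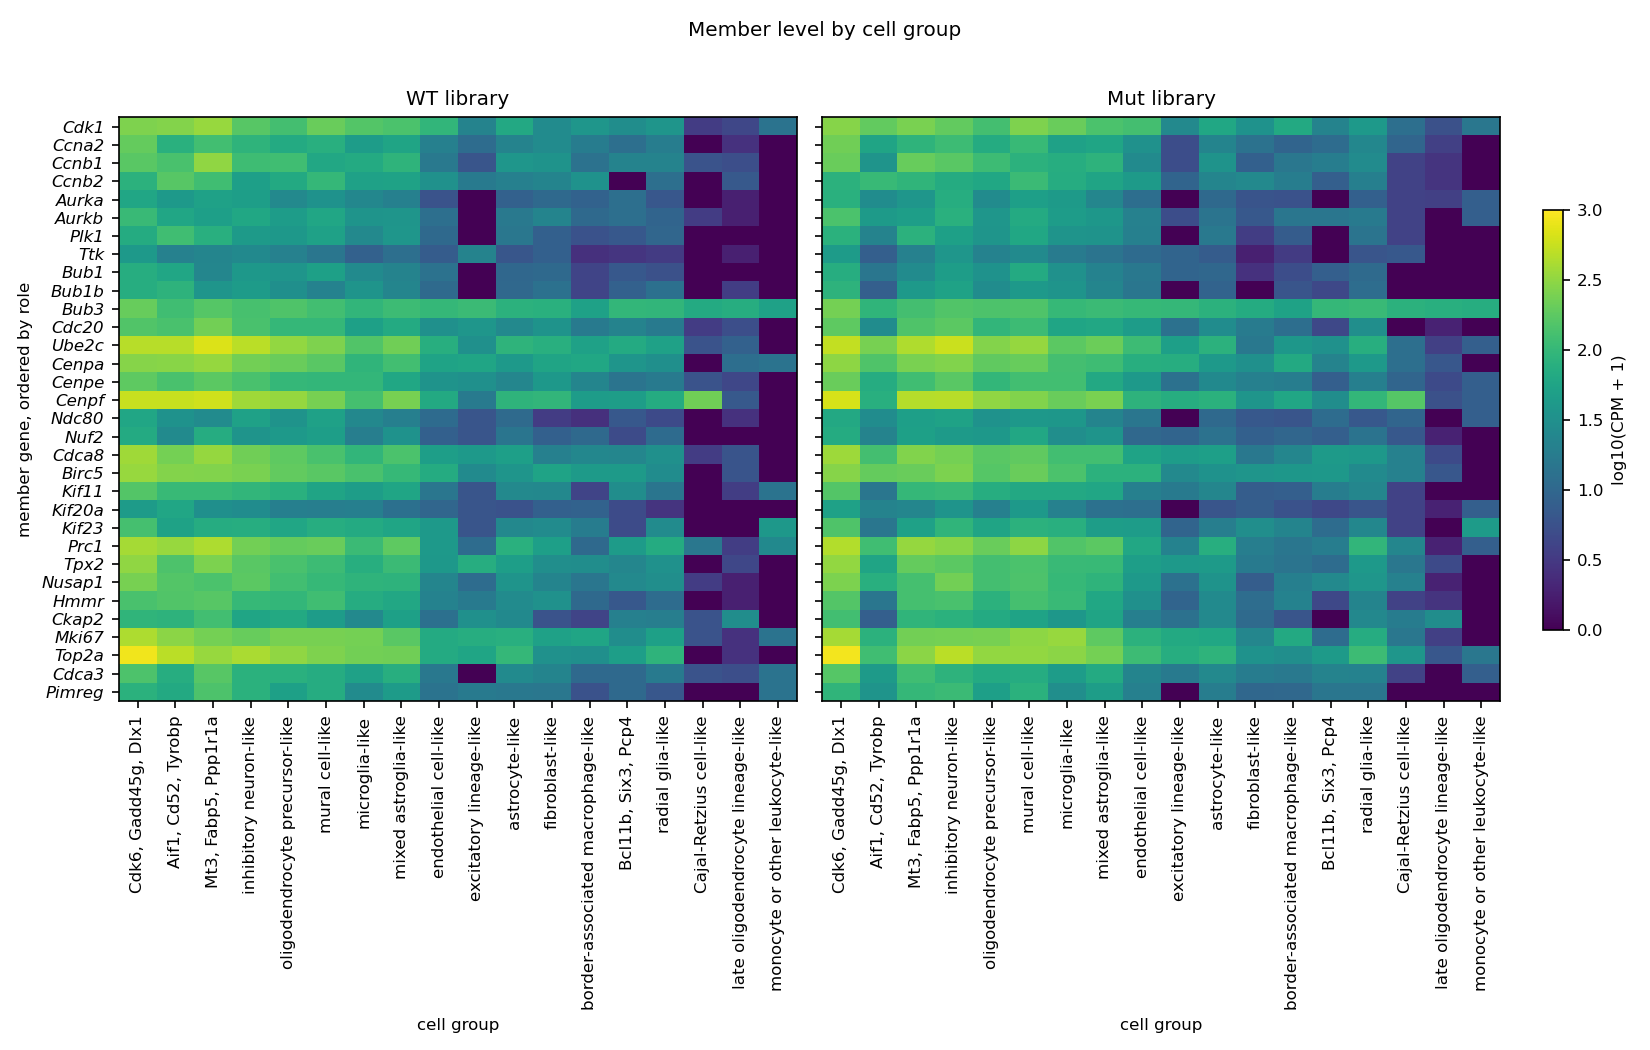
Level of each of the 32 members (rows, ordered by role) in the cell groups plotted (columns) of the WT and the Mut library, as log10(CPM + 1). Top2a runs from 1.69 CPM in WT late oligodendrocyte lineage-like cells to 888 in the Mut cluster led by Cdk6, Gadd45g and Dlx1, while Bub3 stays between 73.4 and 233 CPM in the 12 larger groups.

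The cyclins and kinases start the division. Cdk1, the kinase that drives entry into mitosis, was at 136 CPM over all kept WT cells and 134 in Mut, and was found in 49.1% of WT and 52.6% of Mut cells that were dividing by the other members, against 2.73% and 3.07% of the rest. Ccnb1, the main B-type cyclin and partner of Cdk1, was at 90.1 and 87.9 CPM, and 96.7% and 96.3% of its UMIs were in cells dividing by the other members. Ccna2, cyclin A2, which acts from S phase to early mitosis, was at 62.4 and 63.4 CPM and Ccnb2, the other B-type cyclin, at 50.9 and 52.1. Aurkb, the kinase of the chromosomal passenger complex, was at 39.6 and 40.3 and Plk1, which acts at centrosomes and kinetochores, at 34.6 and 34.1. Aurka, the centrosome and spindle kinase, was at 23.4 and 27.0 CPM, and Ttk, the kinase at the head of the spindle checkpoint, at 14.5 and 16.2. These levels are not per length of transcript, so they are compared between cells and libraries and not between genes.

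Among checkpoint and anaphase-promoting complex genes, Ube2c, the ubiquitin-conjugating enzyme of that complex, was at 252 CPM in WT and 229 in Mut. Cdc20, its activator, was at 77.8 and 73.6, and 34.0% and 33.0% of cells dividing by the other members held a UMI of it. The checkpoint kinase Bub1 was at 26.0 and 25.1 CPM and its relative Bub1b at 26.9 and 25.5. Bub3, the partner that brings both to the kinetochore, stood apart. It was at 120.0 CPM in WT and 119 in Mut, but only 43.1% and 42.9% of its UMIs were in dividing cells, and 13.8% and 14.0% of the other cells held it. For the other 31 members the same share of UMIs ran from 83.8% for Kif23 to 97.8% for Hmmr in WT and from 83.7% for Ckap2 to 97.5% for Hmmr in Mut.

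At the centromere and kinetochore, Cenpf, a large protein of the outer kinetochore, was at 253 CPM in WT and 250 in Mut, and was found in 65.2% and 64.8% of cells dividing by the other members against 2.63% and 3.15% of the rest. Cdca8 (borealin) and Birc5 (survivin), partners of Aurkb in the chromosomal passenger complex, were at 148 and 132 CPM and at 135 and 113 CPM. Cenpa, the histone variant that marks centromeres, was at 142 and 132 CPM, and Cenpe, a kinetochore motor of the kinesin family, at 75.1 and 76.8. Nuf2 and Ndc80, partners in the same microtubule-binding complex, were at 31.8 and 31.5 CPM and at 25.4 and 25.3 CPM.

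Of the spindle genes, Prc1, which bundles the microtubules of the central spindle, was at 176 CPM in WT and 173 in Mut. Tpx2, which targets and activates Aurka on the spindle, was at 119 and 107, and Nusap1, which stabilises microtubules near chromatin, at 97.5 and 97.7. Hmmr was at 69.3 and 67.8 CPM, Kif11, the motor that pushes spindle poles apart, at 61.8 and 58.3, and Kif23, a motor of the central spindle needed for cytokinesis, at 56.9 and 51.5. Ckap2 was at 49.7 and 52.6 and Kif20a, another motor of cytokinesis, at 15.7 and 16.3. Top2a, of the remaining members, was at 267 and 262 CPM and was found in 67.3% and 66.0% of cells dividing by the other members, the highest share of the 32. Mki67, which encodes the Ki-67 protein that coats mitotic chromosomes and marks cycling cells, was at 181 and 176 CPM, Cdca3 at 69.2 and 61.3 and Pimreg at 45.2 and 45.6.

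Within dividing cells the members differed in which cells held them. When dividing cells with fewer than 3 S phase genes were set against those with 3 or more, members with less RNA in the cells low in S phase genes included Top2a (log2 ratio -1.23 in WT and -1.11 in Mut), Aurkb (-1.23 and -0.99), Nusap1 (-1.04 and -1.11), Ndc80 (-0.73 and -1.13), Kif23 (-0.72 and -0.87), Kif11 (-0.63 and -0.79) and Cdk1 (-0.72 and -0.54). Members with more included Ccnb2 (0.68 and 0.75), Cenpa (0.67 and 0.51), Cdc20 (0.45 and 0.53), Cenpf (0.46 and 0.26) and Ccnb1 (0.41 and 0.24). These values are means over thinned cells, each cell being dividing by the members other than the one described. All cell groups were pooled here and in the split by Cdc20 below. The groups differed in S phase genes, which 97.9% and 99.0% of dividing cells held in the cluster led by Cdk6, Gadd45g and Dlx1, against 74.4% and 74.8% over all groups. How far differences between groups enter these ratios was not tested.

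Cdc20, whose product acts at the end of metaphase, was used as a second divider. Of the cells dividing by members other than Cdc20 and the gene described, about 666 in WT and 571 in Mut held a Cdc20 UMI. In these cells Ccnb1 was 2.94-fold higher than in dividing cells without Cdc20 in WT and 2.55-fold in Mut, Plk1 2.69- and 2.31-fold, Ube2c 2.68- and 2.68-fold, and Cenpa 2.49- and 2.42-fold. Aurka was 2.54- and 2.26-fold higher and Hmmr 2.53- and 2.22-fold. All 31 ratios were above 1 in both libraries, and at the low end Ndc80 was 1.07- and 1.07-fold higher, Top2a 1.16- and 1.43-fold and Mki67 1.31- and 1.29-fold. So Ccnb1, Ccnb2, Cenpa, Cenpf and Ube2c stood with Cdc20 on both measures, and Top2a, Aurkb and Ndc80 stood apart from it on both, in both libraries. Aurka and Plk1 were high with Cdc20 but had log2 ratios below 0 on the S phase measure (Aurka -0.38 and -0.98, Plk1 -0.32 and -0.05). Bub1b, at 0.11 in WT and -0.42 in Mut, had no common sign in the 2 libraries on that measure.

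**Figure D3:**
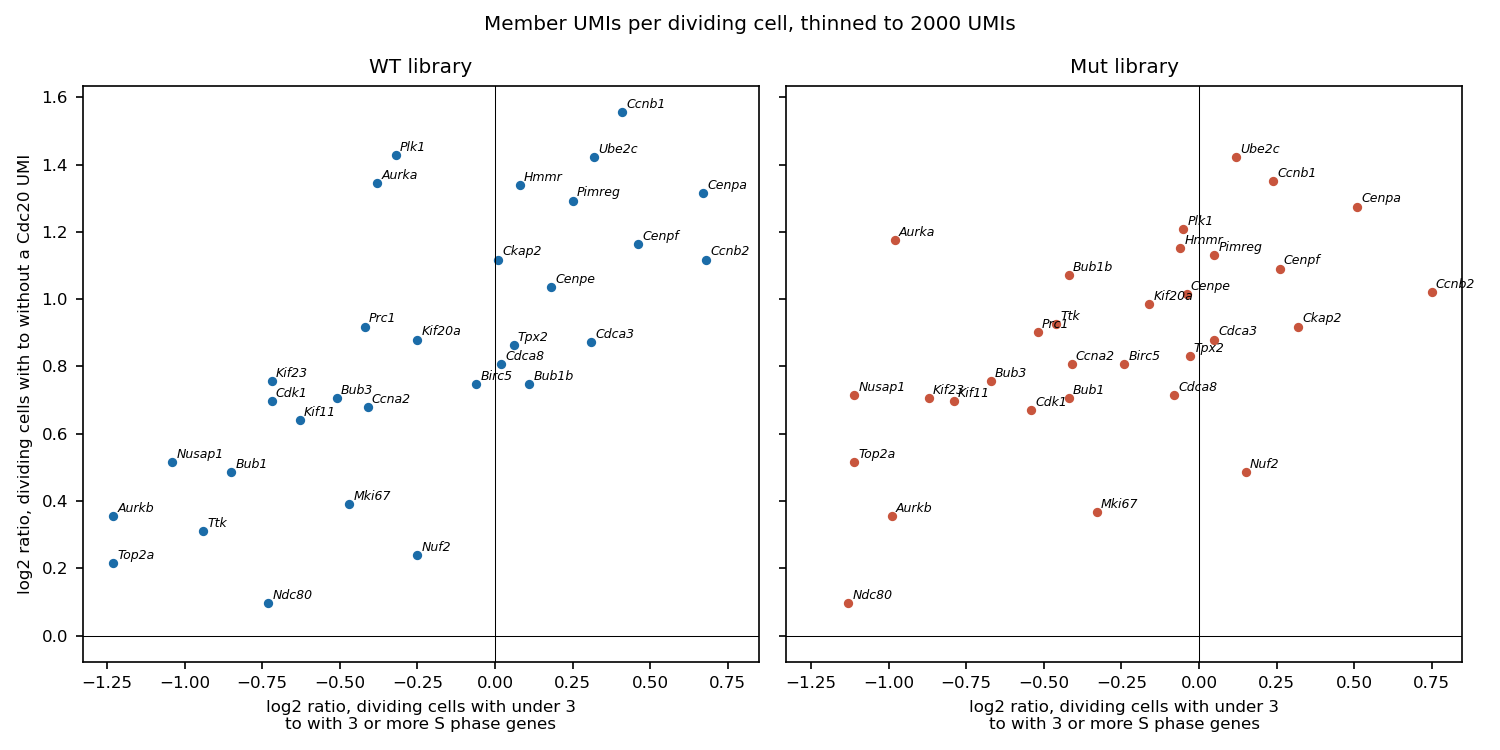
Each of 31 members (all but Cdc20) by the log2 ratio of its mean UMIs in dividing cells with fewer than 3 to those with 3 or more S phase genes (x axis) and in dividing cells with to those without a Cdc20 UMI (y axis), for WT and Mut. Dividing cells of all cell groups are pooled. Ccnb1, Cenpa and Ube2c lie up and to the right and Top2a, Aurkb and Nusap1 to the left.

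Genes of the cell cycle that did not choose the cells were set against the same split. With a call past 2-fold in both libraries, 3.19% of 15375 genes measured over all kept cells were higher in dividing than in other cells and 0.507% lower. The members, at 32 of 32 and a median log2 ratio of 4.66 in WT and 4.68 in Mut, chose these cells, so nothing is read from their count. Their ratios ran from 1.62 and 1.64 for Bub3 to 5.89 and 5.94 for Ube2c. Of 66 other mitosis genes, all 66 were higher, with a median of 3.29 in WT and 3.32 in Mut. Aspm, which focuses spindle poles, stood at 4.81 and 4.77, Spc25 at 4.76 and 4.75 and Cks2 at 4.74 and 4.62, while Ckap5 was lowest at 1.47 and 1.41. Of 47 genes of S phase and replication 43 were higher, with a median of 1.62 and 1.60, led by Rrm2 (3.37 and 3.44), which makes DNA building blocks.

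Other lists moved in part. Among 17 transcription factors and complex subunits that act on mitosis genes 6 were higher, Foxm1 (3.17 and 3.16), Mybl1 (1.95 and 1.89) and Mybl2, which encodes B-Myb (1.92 and 1.95), foremost, while E2f4 stood at 0.14 and 0.22. Only Ube2s (2.09 and 2.01) and Fzr1 (1.36 and 1.25) of 16 core genes of the anaphase-promoting complex and its partners were past the limit. Of 8 G1 cyclins and kinases 2 were, Ccne1 (1.72 and 1.53) and Ccne2 (1.41 and 1.43), and of 12 cell cycle inhibitors again 2, Cdkn2c (2.24 and 2.16) and Cdkn2d (1.88 and 1.97), while Btg2 stood at -0.81 and -0.66. Replication-dependent histones, of which 54 of 60 were measured, had 36 higher, led by Hist1h1b (5.21 and 5.05). Among the genes lower in dividing cells were the myelin gene Mbp (-2.36 and -2.59), the macrophage gene Lyz2 (-2.21 and -2.63) and the astrocyte genes Gfap (-2.10 and -1.96) and Aldoc (-1.51 and -1.48). These last differ between cell types as well, since all kept cells enter the split.

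The split was repeated within single cell groups. In mixed astroglia-like cells, where 3.7% of genes were higher in dividing cells, 66 of 66 other mitosis genes were, as were 39 of 47 S phase genes. Oligodendrocyte precursor-like cells, with 3.73% of genes higher, had 65 of 66 other mitosis genes and 36 of 46 measured S phase genes. In inhibitory neuron-like cells, with 4.67% of genes higher, 65 of 65 measured mitosis genes and 38 of 40 measured histone genes were. Microglia-like cells, with 3.29% of genes higher, had 52 of 53 measured mitosis genes but 12 of 38 measured S phase genes, and 36.9% of their other cells in WT and 42.8% in Mut held at least 3 S phase genes, against 19.1% and 19.1% over all groups. Mural cell-like cells, with 4.67% of genes higher, had 39 of 39 measured mitosis genes. Foxm1 was the highest factor in all 5 groups. A few genes of cell cycle control were lower in dividing cells. Btg1, which restrains proliferation, was at -1.12 in WT and -1.31 in Mut in inhibitory neuron-like cells, where 1.68% of genes were lower, and the G1 cyclin Ccnd2 at -1.77 and -1.49 in mural cell-like cells, where 0.947% were.

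Between the libraries, the level of the 32 members summed over all kept cells was 2972 CPM (2960 to 2985) in WT and 2859 (2847 to 2871) in Mut, and their ratio was 0.962 (0.956 to 0.968). None of the 32 was past 1.2-fold in either direction, where 3.92% of 16799 genes were higher and 0.792% lower. The members' median log2 ratio, computed after adding 5 CPM to both levels, was -0.02, against 0.03 over all genes. Aurka (0.17) and Ttk (0.12) were highest and Birc5 (-0.25), Cdca3 (-0.16) and Cdca8 (-0.16) lowest. For Birc5 the ratio was 0.836 (0.812 to 0.861), from 135 to 113 CPM.

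Ratios taken within cell groups lay higher. For each member the median log2 ratio was taken over the groups in which it was measured, 10 to 12 of the 12. It was above 0 for 31 of 32 members, where 68.2% of 11836 genes were above 0, and the members' median was 0.19 against 0.05 for all genes. Most member RNA came from the same dividing cells, so these are not 32 separate readings. Of the 31, Cdca3 and Bub1b were at 0.00 to 2 decimals. Past 1.2-fold higher were 3 members, where 2.15% of genes were, namely Aurka (0.35), Ccnb1 (0.30) and Ttk (0.28), and Cenpf (0.25) and Prc1 (0.25) came next. None was past 1.2-fold lower, where 0.786% of genes were, and the lowest were Birc5 (-0.06), Cdca3 (0.00), Bub1b (0.00), Tpx2 (0.04) and Kif23 (0.07). By role the medians were 0.21 for cyclins and kinases, 0.19 for checkpoint and anaphase-promoting complex genes, 0.11 for centromere and kinetochore genes, 0.17 for spindle genes and 0.19 for the rest. Among cells with female transcripts alone 17 members were above 0, and among those with male transcripts 21, with fewer groups large enough to enter, and the libraries held different numbers of such cells, 3488 and 3916 in WT and 4884 and 2598 in Mut.

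The share of dividing cells was also set to a common make-up of groups. With the WT shares of dividing cells in each group and the make-up of Mut it was 19.3%, and with the Mut shares and the make-up of WT 20.8%, beside 20.6% and 19.5% as measured. Inhibitory neuron-like cells were 13.7% of kept cells in WT and 10.4% in Mut. A summed level depends on how many cells divide and how much member RNA they hold, but it also gives deeper cells more weight and includes cells under 2000 UMIs. The ratios of dividing shares and of member UMIs per dividing cell, given below for some of the groups, come from thinned cells. They therefore need not multiply to the level ratio.

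In inhibitory neuron-like cells the summed level was 1.2-fold higher in Mut (1.18 to 1.23), with a ratio of dividing shares of 1.11 (0.937 to 1.32) and of member UMIs per dividing cell of 1.03. Past 1.2-fold higher were 15 of 32 members, where 15.8% of genes were, and none past 1.2-fold lower, where 4.23% were, and the log2 ratios ran from 0.02 for Ndc80 to 0.57 for Aurka. Ccnb1 was at 115 CPM in WT against 171 in Mut (ratio 1.48, 1.34 to 1.65), and Cenpf at 374 and 470.0 CPM. In the cluster led by Cdk6, Gadd45g and Dlx1 the summed ratio was 1.08 (1.06 to 1.10), though 0.944 in female cells, and 4 members were past 1.2-fold higher, where 14.6% of genes were, Ckap2 (0.42), Aurka (0.42), Aurkb (0.35) and Ccnb1 (0.30), and none was lower, where 5.78% were.

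The shallow cluster led by Mt3, Fabp5 and Ppp1r1a lay on the other side. Its ratio was 0.762 (0.735 to 0.791), with a share ratio of 0.959 (0.62 to 1.47) and 0.83 per dividing cell. Past 1.2-fold lower were 22 members, where 17.0% of genes were, Ube2c (-0.67), Ccnb1 (-0.66) and Cdc20 (-0.61) foremost. Ndc80 (0.74) was the 1 member past 1.2-fold higher there, where 20.1% of genes were.

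Endothelial, microglial and mural groups had ratios above 1, while smaller groups lay on both sides of it. The cluster led by Aif1, Cd52 and Tyrobp (62 and 64 cells) was at 0.397 (0.347 to 0.454). This rests on 6 and 7 dividing cells, and its share ratio was 0.907 (0.261 to 3.27). Fibroblast-like cells (48 and 135) were at 0.555 (0.489 to 0.631), though their share ratio was 1.86 (0.396 to 17.5). Above 1 were Cajal-Retzius-like cells (45 and 45) at 1.47 (1.17 to 1.84) and ependymal cell-like cells (9 and 14) at 1.52 (1.31 to 1.78). The first ratio rests on 0 and 2 dividing cells and the second on 5 and 8, with an ependymal share ratio of 1.03 (0.297 to 4.0). The intervals of these level ratios count UMIs and leave out the spread between cells. In endothelial cell-like cells the summed level was 1063 CPM in WT against 1445 in Mut (ratio 1.36, 1.31 to 1.41), and 23 members were past 1.2-fold higher, where 11.4% of genes were, and none lower, where 7.47% were. Top2a was at 66.5 CPM in WT and 113 in Mut and Plk1 at 9.57 and 19.3. This rests on 19 and 42 dividing cells, and the ratio of shares was 1.59 (0.905 to 2.9). The ratio of member UMIs per dividing cell was 0.862. In microglia-like cells the ratio was 1.3 (1.26 to 1.35), with a share ratio of 1.28 (0.915 to 1.78) and 1.13 per dividing cell. There 19 members were past 1.2-fold higher, where 24.6% of genes were, and none lower, where 8.06% were. There Mki67 was at 233 CPM in WT and 346 in Mut. Mural cell-like cells had a ratio of 1.25 (1.2 to 1.3), with a share ratio of 0.988 (0.661 to 1.48) and 1.15 per dividing cell, and 18 members higher, where 24.1% of genes were, and 1 lower, Ndc80 (-0.36), where 11.6% were. In all 3 groups many genes outside the list were past the limit too.

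In astroglia and oligodendrocyte precursors the ratios lay near 1. In mixed astroglia-like cells the ratio was 0.987 (0.977 to 0.998), and between 1.0 and 1.1 under 6 other settings of doublets, depth, clustering and sex. There no member was past 1.2-fold higher, where 3.0% of genes were, and 1 was lower, where 0.864% were, Kif23 at 56.5 CPM in WT and 45.3 in Mut. Oligodendrocyte precursor-like cells had a ratio of 0.948 (0.935 to 0.961) and no member past 1.2-fold either way, where 4.93% of genes were higher and 1.98% lower. The astrocyte-like group had a ratio of 0.951 (0.926 to 0.977), and between 1.01 and 1.05 under 4 other settings of doublets, clustering and naming. There none was higher, where 6.12% of genes were, and Kif23 (-0.33) and Mki67 (-0.31) were lower, where 2.98% were. In radial glia-like cells the ratio was 1.33 (1.25 to 1.41) on 12 and 13 dividing cells, and 20 of 27 measured members were past 1.2-fold higher, where 15.8% of genes were, Pimreg (0.85), Hmmr (0.77) and Cdc20 (0.74) foremost, and none lower, where 12.6% were. With doublets kept that ratio was 0.969. In the late oligodendrocyte lineage-like group only Bub3 (0.08) and Ckap2 (-0.01) had enough UMIs to be measured, and neither was past 1.2-fold, where 21.2% of genes were higher and 15.1% lower.

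Some members at the ends of this order are given group by group. Aurka was at 47.3 CPM in WT and 72.9 in Mut among inhibitory neuron-like cells (ratio 1.54, 1.31 to 1.81), at 59.0 and 80.3 in the cluster led by Cdk6, Gadd45g and Dlx1 (ratio 1.36, 1.15 to 1.62) and at 32.5 and 48.7 in mural cell-like cells. It was at 23.5 and 41.8 in microglia-like, 25 and 26.7 in oligodendrocyte precursor-like, 19.5 and 23.0 in mixed astroglia-like, 7.45 and 9.59 in astrocyte-like and 4.92 and 11.1 in endothelial cell-like cells. The log2 ratio of Aurka was above 0 in 9 of the 10 groups in which it was measured, the cluster led by Mt3, Fabp5 and Ppp1r1a (51.3 and 36.6 CPM) being the exception.

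Ccnb1, beside the inhibitory neuron-like values, was at 168 and 208 CPM in the cluster led by Cdk6, Gadd45g and Dlx1, 62.3 and 83.9 in mural cell-like and 15.3 and 26.3 in endothelial cell-like cells. In oligodendrocyte precursor-like cells it was at 118 and 114, in mixed astroglia-like cells at 88.3 and 86.4 and in astrocyte-like cells at 36.4 and 34.2, so the log2 ratio of Ccnb1 was above 0 in 7 of 11 groups, and below 0 in these 3 and in the cluster led by Mt3, Fabp5 and Ppp1r1a (315 and 198 CPM). Ttk was low everywhere, between 2.3 and 43.9 CPM in the 11 groups other than the late oligodendrocyte lineage-like one, and its log2 ratio was above 0 in 9 of 10 groups.

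Birc5 stood at the other end. It was at 190.0 CPM in WT and 159 in Mut in oligodendrocyte precursor-like cells (ratio 0.836), at 100 and 84.7 in mixed astroglia-like cells (ratio 0.844) and at 339 and 287 in the cluster led by Cdk6, Gadd45g and Dlx1 (ratio 0.847). It was at 245 and 255 in inhibitory neuron-like, 172 and 205 in mural cell-like, 135 and 142 in microglia-like and 69.8 and 84.7 in endothelial cell-like cells. The log2 ratio of Birc5 was above 0 in 5 of 11 groups and that of Ccna2 in 10 of 11. Cdca8, the partner of Birc5 in the chromosomal passenger complex, was at 372 and 364 CPM in the cluster led by Cdk6, Gadd45g and Dlx1 and at 139 and 124 in mixed astroglia-like cells.

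Other cell cycle lists gave these medians over groups. Over all genes, 2.15% were past 1.2-fold higher and 0.786% lower. Of 66 other mitosis genes 11 were past 1.2-fold higher and none lower, with a median of 0.15, led by Depdc1b (0.48), Cenpw (0.38) and Ckap2l (0.35), while Mxd3 (-0.09) was lowest. Genes of S phase and replication had none past the limit and a median of 0.05, with Rrm2 (0.22) highest and Gmnn (-0.22), which encodes geminin, lowest. The replication-dependent histones lay on the other side, with a median of -0.26 over 46 measured, 23 past 1.2-fold lower, Hist1h1e (-0.76) and Hist1h1d (-0.62) foremost, and 2 higher, Hist1h2ap (0.54) and Hist1h2ad (0.41). Transcription factors of mitosis genes had a median of 0.09, the core of the anaphase-promoting complex 0.04, G1 cyclins and kinases 0.05, cell cycle inhibitors 0.06 and 61 other cycling genes 0.05. In those 5 lists 4 genes were past 1.2-fold, all among the other cycling genes and all higher, Spdl1 (0.32) and Tuba1c (0.32) foremost.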

How the data were processed

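The authors deposited raw UMI counts for every barcode, made by Cell Ranger 4, per the file headers, with no choice of cells. Cell Ranger, STAR and build GRCm38 are named per the submitters' processing notes, without an annotation release. The libraries hold 93664707 UMIs over 1957831 barcodes (WT) and 97891513 over 1974760 (Mut).

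Scrublet in scanpy 1.11.5 (Python 3.11.15, scikit-learn 1.9.0) scored doublets, and 972 (8.82%) and 816 (8.08%) barcodes were removed, 0.8% per 1000. Both libraries were clustered together (2000 variable genes, 30 components, 15 neighbours, Leiden resolution 1), after 611 genes that followed the cell cycle (correlation above 0.2) were left out. A cluster could take the name of a marker list with a score of at least 0.4 and a lead of at least 0.1, with 3 markers in 10% of its cells. The score and the lead were set once the scores of the clusters were known. They did not decide every name. The cluster led by Bcl11b, Six3 and Pcp4 scored 0.491 for inhibitory neuron against 0.062 for radial glia and was left unnamed. Clusters led by Serpinf1, Gfap and Pla2g3 (0.49 for astrocyte against 0.373 for radial glia) and by Crym, Socs3 and Six3 (0.544 against 0.386) were named mixed astroglia. Clusters between astrocyte and radial glia, between late oligodendrocyte stages, or between intermediate progenitor and excitatory neuron were joined.

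UMIs were summed per group and library, with exact Poisson intervals for CPM, exact conditional binomial ones for ratios (scipy 1.17.1) and Clopper-Pearson ones for shares. Intervals of levels and level ratios treat UMIs as independent, although a dividing cell holds many member UMIs, so they leave out the spread between cells. Log2 ratios used 5 CPM added and genes with at least 30 UMIs; medians used 12 groups of at least 100 cells and genes measured in at least 4. Free RNA came from barcodes of 10 to 100 UMIs. The scripts were tested on simulated data.

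Named in full were the 12 members with the highest mean level, the 5 highest and 5 lowest by median ratio, and the ends of 8 other lists. The members, groupings and lists were chosen with earlier results of these data known. The values of 1 cell group and of some other genes are not reported here.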

Additional observations from a re-analysis of the deposited data

Results flagged for a closer look

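The 32 genes were abundant in RNA outside cells. Barcodes of 10 to 100 UMIs, which enter no comparison, held them at 1960.0 CPM in WT (1920 to 2000, from 9291 UMIs) and 1976.0 CPM in Mut (1936 to 2017, from 9189 UMIs). This was above the late oligodendrocyte lineage-like cells, at 184 and 164 CPM, and below the 2972 and 2859 CPM of all kept cells. Top2a was at 152 and 141 CPM there and Ube2c at 183 and 183.

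Dividing cells were more frequent among the barcodes removed as doublets. In WT 302 of 911 of them with at least 2000 UMIs were dividing (33.2%, 30.1 to 36.3), and in Mut 233 of 760 (30.7%, 27.4 to 34.1), against 20.6% and 19.5% of kept cells. The removed barcodes had a median of 10520.5 and 12988 UMIs before thinning.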

How the results depend on the processing

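No paired analysis was possible because each genotype has 1 library. Over all kept cells the summed member level had a Mut to WT ratio of 0.962, and of 0.987 with each cell thinned to 2000 UMIs, 0.932 with TMM scaling, 0.942 in female and 0.985 in male cells. The ratio of dividing shares, 0.948, was 1.05 without thinning, and the cause was not tested. The count of members above 0 in the median over groups, 31, was 17.0 in female cells and between 21 and 32 otherwise. By group, the level ratio in mixed astroglia-like cells was 1.0 with doublets at the automatic threshold, 1.01 with thinned sums, 1.1 with cell cycle genes kept in clustering, 1.04 at Leiden resolution 2, and 1.04 and 1.05 in female and male cells. In astrocyte-like cells it was 1.05 with doublets kept, 1.04 with cell cycle genes kept, 1.01 at resolution 2 and 1.02 with the marker rule applied per barcode. In radial glia-like cells it was 0.969 with doublets kept. In female cells it was 0.944 in the cluster led by Cdk6, Gadd45g and Dlx1. The causes of these turns were not tested. TMM scaling shifted log2 ratios by 0.12 in microglia-like cells and by at most 0.1 in the other groups. Leaving out the unnamed clusters and setting a common make-up of groups were chosen after seeing the data. Of the remaining settings of single groups and genes, 156 stayed near the value given and 35 moved. Mut cells were deeper than WT cells, and small groups limit the shares: with 12 and 13 dividing radial glia-like cells a difference in share was not detectable.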

Other observations

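In some small groups 1 member made up a large part of the member UMIs. In Cajal-Retzius-like cells Cenpf was at 223 CPM in WT (180.0 to 274, 92 UMIs) and 160.0 CPM in Mut (121 to 208, 56 UMIs), and gave 64.3% and 31.5% of all member UMIs there. It was found in 27.5% of WT and 43.2% of Mut cells after thinning. Of the other members 18 were at 0 in WT and 4 in Mut. Cdc20 had 1 UMI in WT and 0 in Mut, and Top2a 0 UMIs in WT and 13 in Mut (37.1 CPM).

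Ependymal cell-like cells, which line the ventricles and carry many motile cilia, numbered 9 in WT and 14 in Mut. By the rule 5 of 9 (55.6%, 21.2 to 86.3) and 8 of 14 (57.1%, 28.9 to 82.3) were dividing, but with 6.6 and 9.88 member UMIs of 2000 per dividing cell, against 19.3 and 20 over all groups. Top2a gave 27.2% and 17.4% of their member UMIs, at 544 CPM in WT (64 UMIs) and 529 CPM in Mut (115 UMIs), while Mki67 had 0 UMIs in WT and 7 in Mut. With so few cells the shares do not separate the libraries.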
